A study of Mus musculus with 6 samples.

Results

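The genes described are 9 surface and niche markers of satellite cells, the muscle stem cells that lie between a muscle fiber and its basal lamina: *Vcam1*, *Ncam1*, *Cd34*, *Sdc3*, *Sdc4*, *Met*, *Cxcr4*, *Calcr* and *Tenm4*. They were found by symbol among the 54525 gene rows of the counted libraries, and each matched 1 row. Total RNA had been sequenced from C2C12 cells in 2 states, undifferentiated myoblasts (D0, 3 libraries) and myotubes 5 days into differentiation (D5, 3 libraries). C2C12 is an established mouse myoblast line. Both groups were labelled wild type and untreated, and differentiation was started by replacing growth medium with fetal bovine serum by medium with horse serum. The cells are those of 1 line grown without fibers or a basal lamina, and no satellite cell was sorted. In a C2C12 culture some cells do not fuse and remain as mononucleated reserve cells beside the myotubes, and bulk RNA does not separate them from the myotubes.

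Satellite cells are recognized and sorted by proteins on their surface. Adhesion molecules such as VCAM1, NCAM1 and the sialomucin CD34 place the cell in its niche. The syndecans are transmembrane proteoglycans whose heparan sulfate chains hold growth factors near their receptors. MET, CXCR4 and the calcitonin receptor carry signals from hepatocyte growth factor, the chemokine CXCL12 and calcitonin, and signals through the calcitonin receptor are known for keeping satellite cells quiescent. The teneurins are large transmembrane proteins that bind latrophilin receptors on a neighbouring cell.

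The D0 libraries held from 36555048 to 40895840 counts on genes and the D5 libraries from 25449759 to 25811300. All 6 genes listed for fusion and contraction were higher at D5 and all 8 listed for proliferation were lower, in keeping with the labels of myotubes and myoblasts. The fusion peptide myomixer, *Mymx*, went from 0.408 ± 0.150 to 83.2 ± 3.56 CPM (SD, n = 3 each), counts per 1000000 after TMM scaling. Synthetic ERCC spike-in RNAs took from 0.726% to 0.859% of the counts at D0 and from 0.720% to 2.09% at D5. Scaling to them in place of TMM moved the median log2 fold change of all genes tested from 0.0022 to -0.58, and the markers' log2 fold changes are therefore given on both scales. A gene was called where edgeR's quasi-likelihood model gave it an adjusted p below 0.05, and 82.9% of the 16290 genes tested were called, 40.8% lower and 42.2% higher at D5. Of the calls 49.2% were lower after TMM scaling and 67.4% after scaling to the spike-ins. The p-values measure the spread between these libraries, which came from 1 line. The sample titles number the libraries and do not say whether each came from a separate culture. Single values were not permuted because 3 against 3 allow no two-sided exact p smaller than 0.1.

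The 9 markers did not move one way. *Sdc3*, *Cxcr4* and *Met* were lower at D5, *Vcam1* and *Cd34* were higher, *Ncam1* and *Sdc4* were slightly higher with TMM but not when scaled to the spike-ins, *Tenm4* was close to the limit of detection and *Calcr* had no counts. The 7 markers that passed the filter on low counts were thus all called, 3 lower and 4 higher, beside the 82.9% of all genes. No D0 library overlapped a D5 library for these 7 or for *Tenm4*, against 41.1% of all genes tested with every D5 library below and 42.2% with every D5 library above every D0 library. *Sdc3*, *Met* and *Cxcr4* fell over 2-fold, as did 16.0% of all genes, and *Vcam1* and *Cd34* rose over 2-fold, as did 19.3%. *Sdc3* fell and *Vcam1* and *Cd34* rose over 10-fold, which 2.79% of all genes did downwards and 6.72% upwards. In bulk samples, fewer cells of a type and less RNA per cell cannot be told apart.

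**Figure D1:**
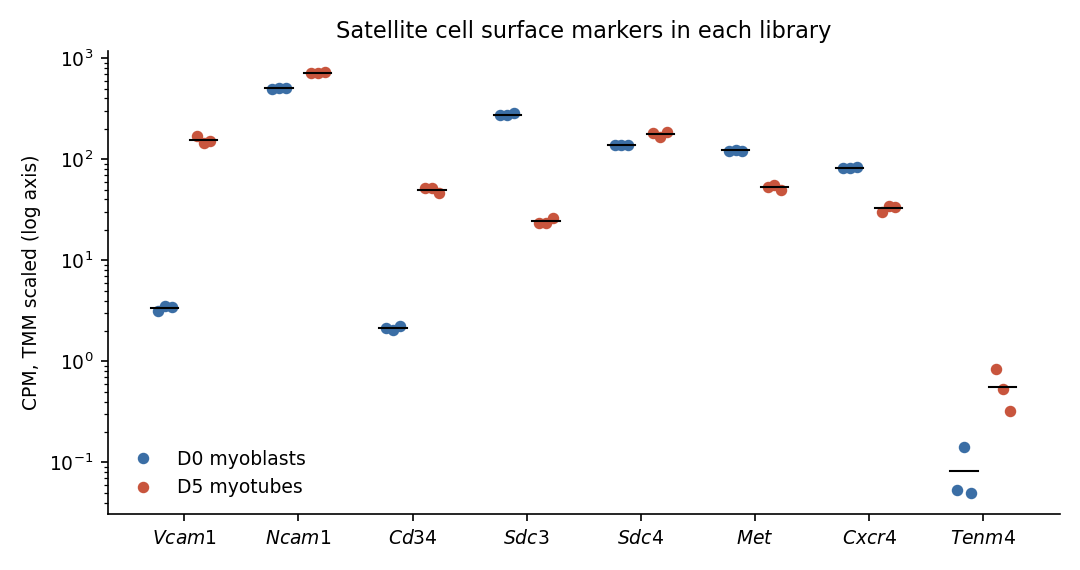
CPM of 8 markers in each of the 6 libraries on a log axis (points: libraries; black lines: group means; blue D0, red D5); *Calcr*, with 0 counts, is left out. *Vcam1* and *Cd34* sit below 4 CPM in every D0 library and above 46 CPM in every D5 library, and *Sdc3* moves the opposite way.

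RefSeq gives promoter windows on GRCm38.p6 for 7 of the 9 markers, all but *Vcam1* and *Ncam1*. The 120 bases before the annotated start are shown for the marker with the largest fall, for a chemokine receptor that also fell and for a marker that rose, as examples of both directions. Each is written 5′ to 3′ on the strand of its gene, with matches to GGGCGG, the GC box, in capitals on either strand (CCGCCC where it lies on the other). They lie at chr4:130792417-130792536 on the plus strand for *Sdc3*, at chr1:128592300-128592419 on the minus strand for *Cxcr4* and at chr1:194938699-194938818 on the plus strand for *Cd34*.

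Sdc3: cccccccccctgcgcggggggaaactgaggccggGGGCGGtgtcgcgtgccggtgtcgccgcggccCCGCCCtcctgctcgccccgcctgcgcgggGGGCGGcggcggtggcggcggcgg

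Cxcr4: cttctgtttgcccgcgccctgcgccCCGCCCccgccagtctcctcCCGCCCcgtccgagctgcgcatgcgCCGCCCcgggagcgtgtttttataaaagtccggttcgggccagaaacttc

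Cd34: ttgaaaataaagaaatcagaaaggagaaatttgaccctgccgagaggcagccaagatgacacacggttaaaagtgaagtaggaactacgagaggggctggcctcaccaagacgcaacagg

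The *Sdc3* and *Cxcr4* stretches each held 3 matches to GGGCGG and were 86.7% and 68.3% G or C, whereas that of *Cd34* held none and was 47.5% G or C. Over the 250 bases before the start, 5 of the 9 windows of the 7 markers held GGGCGG, against 32.7% of 32851 windows of all genes. These were the windows of *Sdc3*, *Met* and *Cxcr4* (3 matches each), *Sdc4* (4) and the first window of *Calcr* (1). *Sdc4* was called higher at D5 with TMM, so the matches were not confined to markers that fell. CAGCTG, the E-box letters that MyoD and myogenin prefer, was in 0 of the 9 windows against 13.0% of all, and the general E-box CANNTG in 4 of 9 against 66.2%. CACCTG, which is one form of CANNTG, was in 1 of the 9 against 17.2%. Both strands were searched, and absence says only that the letters are not in these windows.

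*Vcam1*, an immunoglobulin-family adhesion molecule that binds integrins on another cell and marks quiescent and activated satellite cells, rose most of the 9. It lies on chromosome 3 of GRCm38 from 116109949 to 116129688 (ENSMUSG00000027962.14) and had 3.15, 3.50 and 3.43 CPM in the D0 libraries and 168, 143 and 153 CPM in the D5 libraries. Every myotube library was far above every myoblast library, and the spread within each group was small beside the difference. The log2 fold change was 5.52 (standard error, SE, 0.066, edgeR adjusted p = 7.3e-34), a 45.9-fold rise, and 3.26% of all genes tested rose more. Scaled to the spike-ins it was 4.94. Per kb of exon, *Vcam1* was at the 17.3 percentile of the genes tested at D0 and at the 83.0 percentile at D5.

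The integrin chains that bind VCAM1 moved apart. *Itga4*, the alpha chain, rose from 5.004 ± 0.0632 to 44.0 ± 3.49 CPM (SD, n = 3 each), a difference of 3.14 on the log2 scale (edgeR, adjusted p = 3.2e-27). *Itgb1*, the beta chain that many integrins share, fell from 1681 ± 28.1 to 978 ± 28.7 CPM (SD, n = 3 each), a difference of -0.78 on the log2 scale. Within a library, where no scaling enters, the ratio of *Vcam1* to *Itga4* in counts per kb was 0.979, 1.11 and 1.08 at D0 and 5.60, 5.59 and 5.44 at D5. *Vcam1* thus gained on *Itga4* in all 3 myotube libraries.

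*Ncam1*, the neural cell adhesion molecule of satellite cells, regenerating fibers and myotubes, was abundant in both groups. It lies on chromosome 9 from 49502136 to 49798925 (ENSMUSG00000039542.16) and had 501, 505 and 509 CPM at D0 and 716, 711 and 734 CPM at D5. The groups did not overlap, with a log2 fold change of 0.51 (SE 0.031, edgeR adjusted p = 1.5e-15). Scaled to the spike-ins the call was lost, at a log2 fold change of -0.06 with a far wider error (SE 0.51, edgeR adjusted p = 0.94). The call thus rests on the scaling, and the spike-in fit gives no clear direction. The counts do not separate its isoforms. *St8sia2*, which adds polysialic acid to NCAM1 and so weakens its adhesion, went from 6.45 ± 0.169 to 17.3 ± 1.28 CPM (SD, n = 3 each), a difference of 1.42 on the log2 scale (edgeR, adjusted p = 5.5e-17) that was 0.83 (edgeR adjusted p = 0.22) with the spike-ins. The related enzyme *St8sia4* had at most 10 counts in any library and was not tested.

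*Cd34*, a sialomucin of quiescent satellite cells and also of blood progenitors, endothelium and fibroadipogenic cells, had few counts in myoblasts. The gene lies on chromosome 1 from 194938819 to 194961279 (ENSMUSG00000016494.9). It was at 2.16, 2.05 and 2.26 CPM at D0, from 81, 86 and 91 counts, and at 51.6, 51.4 and 46.3 CPM at D5. The groups were far apart, and within each the libraries lay close together. The log2 fold change was 4.53 (SE 0.075, edgeR adjusted p = 2.8e-30), a 23.1-fold rise, and was 3.98 with the spike-ins. Of its family, *Podxl* fell from 3.28 ± 0.353 to 0.616 ± 0.0599 CPM, while *Podxl2* rose from 4.17 ± 0.427 to 8.42 ± 0.595 CPM (SD, n = 3 each), a call lost with the spike-ins (edgeR adjusted p = 0.52). The ratio of *Cd34* to *Podxl* in counts per kb was 0.473, 0.535 and 0.482 at D0 and 65.0, 68.1 and 51.0 at D5. Per kb of annotated exon, *Cd34* was thus below *Podxl* in every myoblast library and far above it in every myotube library. The order at D0 depends on the lengths used, which merge all annotated exons of a gene.

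Because *Cd34* and *Vcam1* also mark other cells of muscle, the markers of those cells are given beside them. Of 4 fibroadipogenic markers 3 were higher at D5, beside 42.2% of all genes tested. The summed level of the 4 was 34.2 to 37.7 CPM at D0 and 76.0 to 84.4 CPM at D5. *Pdgfra* went from 1.04 ± 0.151 to 24.0 ± 1.77 CPM, *Dpt* from 0.0823 ± 0.0335 to 20.1 ± 2.67 CPM and *Pi16* from 0.174 ± 0.0455 to 2.95 ± 0.410 CPM (SD, n = 3 each), whereas *Ly6a* was not called, at 35.0 ± 1.72 and 33.4 ± 1.88 CPM. Their part in the rise of *Cd34* and *Vcam1* was not tested. Endothelial markers did not rise: their sum was 3.31 to 3.59 CPM at D0 and 0.518 to 0.884 CPM at D5, *Kdr* and *Tek* were called lower, *Pecam1* had at most 7 counts, *Cdh5* at most 3 and *Emcn* 0. Of 5 haematopoietic markers *Cd68* was called lower with TMM but not with the spike-ins, *Ptprc* had at most 1 count, *Cd3e* at most 2 and *Adgre1* 0, with sums of 3.05 to 3.31 and 2.09 to 3.12 CPM. The fifth, *Itgam*, which marks myeloid cells, went the other way, with 0 counts in every D0 library and 10, 13 and 5 counts at D5. It did not pass the filter, 1 gene of this list was called higher without the filter and without D5 replicate 3, and 68.7% of the exonic length of *Itgam* is shared with *Gm49368* on the same strand. Summed levels at D0 and D5 were at most 2.05 and 1.23 CPM for glia, 0.285 and 0.0812 CPM for adipocytes and 0.124 and 0.201 CPM for neurons. The mural list went from 17.9 to 19.99 CPM at D0 to 45.1 to 46.3 CPM at D5, nearly all of it *Cspg4*, whose call was lost with the spike-ins, while *Rgs5* had at most 3 counts.

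The syndecans of satellite cells parted. *Sdc3*, on chromosome 4 from 130792537 to 130826319 (ENSMUSG00000025743.14), had 273, 272 and 284 CPM at D0 and 23.4, 23.5 and 26.4 CPM at D5. This was the largest fall among the 9 markers, to 8.84% of the myoblast level (log2 fold change -3.50, SE 0.044, edgeR adjusted p = 2.2e-33), and 2.57% of all genes tested fell more. *Sdc4*, on chromosome 2 from 164424247 to 164443887 (ENSMUSG00000017009.3), had 138, 138 and 139 CPM at D0 and 180, 167 and 186 CPM at D5. Its groups did not overlap, and its log2 fold change was 0.36 (SE 0.036, edgeR adjusted p = 1.9e-10). As for *Ncam1*, that call was lost with the spike-ins, where the error was wider (log2 fold change -0.23, SE 0.51, edgeR adjusted p = 0.75), whereas *Sdc3* was at -4.10. The ratio of *Sdc3* to *Sdc4* in counts per kb, which no scaling changes, was 0.840, 0.838 and 0.866 at D0 and 0.0552, 0.0598 and 0.0605 at D5. Per length, the D0 libraries thus held the 2 syndecans at similar levels and the D5 libraries mainly *Sdc4* of the pair.

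The other syndecans completed the family. *Sdc2* rose from 137 ± 3.01 to 447 ± 5.01 CPM (SD, n = 3 each), a difference of 1.71 on the log2 scale that was 1.15 (edgeR adjusted p = 0.072) with the spike-ins. *Sdc1* was at 110 ± 3.16 and 119 ± 3.17 CPM (SD, n = 3 each), a difference of 0.12 on the log2 scale (edgeR, adjusted p = 0.0038) whose call was lost with total counts alone, with no filter on low counts, without D0 replicate 3 and with the spike-ins, where the value was -0.44. *Sulf2*, an extracellular enzyme that removes sulfate from heparan chains, fell from 252 ± 3.27 to 51.0 ± 3.12 CPM (SD, n = 3 each), a difference of -2.31 on the log2 scale (edgeR, adjusted p = 6.7e-30).

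**Figure D2:**
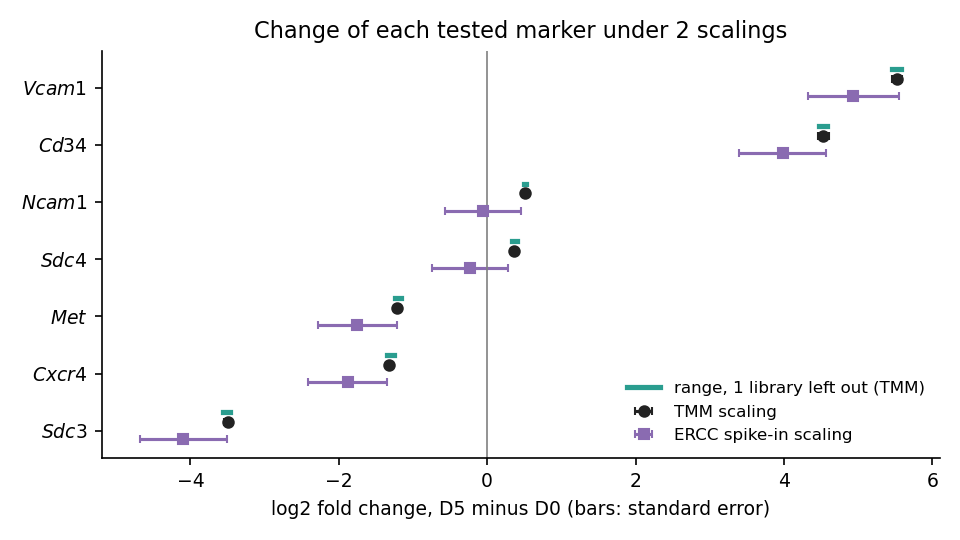
Log2 fold change, D5 minus D0, of the 7 tested markers with TMM factors (black circles) and with ERCC spike-in factors (purple squares), with standard errors as bars and the range over the 6 fits that leave out 1 library in green. All 7 shift to the left with the spike-ins, and *Ncam1* and *Sdc4* then lie at or below 0 within 1 standard error.

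*Met*, the receptor tyrosine kinase for hepatocyte growth factor and a marker of quiescent and activated satellite cells, lies on chromosome 6 from 17463800 to 17573980 (ENSMUSG00000009376.15). It had 121, 124 and 122 CPM at D0 and 53.4, 55.6 and 49.7 CPM at D5. Every myotube library was below every myoblast library, yet 43.2% of the level was kept (log2 fold change -1.21, SE 0.040, edgeR adjusted p = 2.0e-22). The fall was -1.75 with the spike-ins. Its ligand *Hgf* moved the other way, from 0.604 ± 0.177 to 23.1 ± 4.10 CPM (SD, n = 3 each), a difference of 5.24 on the log2 scale (edgeR, adjusted p = 5.4e-24). The ratio of *Met* to *Hgf* in counts per kb was 223, 144 and 229 at D0 and 1.83, 2.73 and 2.02 at D5. Per kb of annotated exon, the receptor transcript exceeded that of the ligand in every library, by far less at D5. *Plau*, the protease urokinase, and its receptor *Plaur*, which act in the release and processing of matrix-bound growth factors, had log2 fold changes of -2.60 (edgeR adjusted p = 3.8e-31) and -5.004 (edgeR adjusted p = 1.8e-30). *Cbl*, the ubiquitin ligase that removes active MET from the surface, had a log2 fold change of -0.97 (edgeR adjusted p = 5.2e-21).

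*Cxcr4*, the chemokine receptor that guides myogenic cells, lies on chromosome 1 from 128588199 to 128592293 (ENSMUSG00000045382.6). It had 81.2, 81.5 and 84.4 CPM at D0 and 30.3, 34.7 and 34.0 CPM at D5, with no overlap between groups. At D5 40.02% of the D0 level was kept (log2 fold change -1.32, SE 0.046, edgeR adjusted p = 7.5e-22), and the log2 fold change was -1.88 with the spike-ins. As with *Met* and *Hgf*, its ligand *Cxcl12* rose, from 2.55 ± 0.301 to 212 ± 9.08 CPM (SD, n = 3 each), a difference of 6.38 on the log2 scale (edgeR, adjusted p = 1.9e-36). *Mif*, another gene of the ligand list, fell like the receptor, from 438 ± 26.5 to 128 ± 0.714 CPM (SD, n = 3 each). Its log2 fold change was -1.78 (edgeR adjusted p = 2.9e-27). *Ackr3*, the second receptor of CXCL12, which takes the chemokine up, fell from 22.7 ± 1.30 to 6.17 ± 1.20 CPM (SD, n = 3 each), a difference of -1.88 on the log2 scale (edgeR, adjusted p = 1.1e-18). The ratio of *Cxcr4* to *Ackr3* in counts per kb was 6.35, 6.48 and 7.35 at D0 and 9.27, 8.64 and 12.5 at D5. *Cxcr4* was the more abundant receptor per length in all 6 libraries.

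*Calcr*, the calcitonin receptor, lies on chromosome 6 from 3685680 to 3764714 (ENSMUSG00000023964.15) and had 0 counts in all 6 libraries. A count of 0 allows up to 3 counts, which is 0.0714 to 0.0801 CPM in the D0 libraries and 0.119 to 0.122 CPM in the D5 libraries, by counting error only. The calcitonin peptides were scarce too, with at most 1 count in any library for *Calca*, 2 for *Calcb* and 0 for *Iapp*. Of the RAMP proteins that pair with this receptor, *Ramp1* and *Ramp3* had at most 3 and 2 counts. *Ramp2* had 3, 3 and 0 counts at D0 but 94, 68 and 83 counts at D5, which is at least 43.5-fold higher when D0 is set to 3 counts per library. Its counts are uncertain, since 33.4% of its exonic length is shared with *Vps25* on the same strand. *Calcrl*, the related receptor that also uses RAMP proteins, rose from 1.58 ± 0.316 to 5.95 ± 0.896 CPM (SD, n = 3 each). *Col5a1*, a chain of collagen V, which is known as a ligand of the calcitonin receptor in quiescent satellite cells, was not called (log2 fold change 0.033, edgeR adjusted p = 0.34). Other collagen V chains were called: *Col5a3* lower (log2 fold change -0.78, edgeR adjusted p = 2.1e-16) and *Col5a2* slightly higher (0.15, edgeR adjusted p = 0.0001).

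*Tenm4*, on chromosome 7 from 96171246 to 96911093 (ENSMUSG00000048078.16), had 2, 6 and 2 counts at D0 and 21, 13 and 8 counts at D5. In CPM these were 0.0534, 0.143 and 0.0497 at D0 and 0.836, 0.528 and 0.322 at D5, so the groups did not overlap although every value was low. The gene did not pass the filter on low counts and has no main test. The ratio of the summed counts after scaling was 6.74, with an exact 95% counting interval from 3.33 to 15.1. Without the filter its log2 fold change was 2.65 (SE 0.49, edgeR adjusted p = 1.7e-07). It passed the filter in each of the 6 fits that left out 1 library, with values from 2.30 to 3.34. The highest was without D0 replicate 2, which holds 6 of the 10 counts at D0. Leaving out a library lowers the number of libraries the filter asks for, and the gene then passed only through its D5 counts. These fits are thus no separate support for the rise. Scaled to the spike-ins, the groups overlapped.

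*Tenm3* was the teneurin with counts. It rose from 3.27 ± 0.144 to 131 ± 6.79 CPM (SD, n = 3 each), a difference of 5.32 on the log2 scale (edgeR, adjusted p = 1.7e-34), while *Tenm1* and *Tenm2* had at most 1 and 2 counts. Of the latrophilins that bind teneurins, *Adgrl2* rose from 1.62 ± 0.238 to 61.9 ± 3.73 CPM and *Adgrl3* from 2.13 ± 0.115 to 119 ± 4.33 CPM (SD, n = 3 each), with log2 fold changes of 5.25 and 5.80. *Adgrl1* was at 95.5 ± 3.47 and 95.5 ± 4.94 CPM (SD, n = 3 each), a difference within the spread between replicates.

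**Figure D3:**
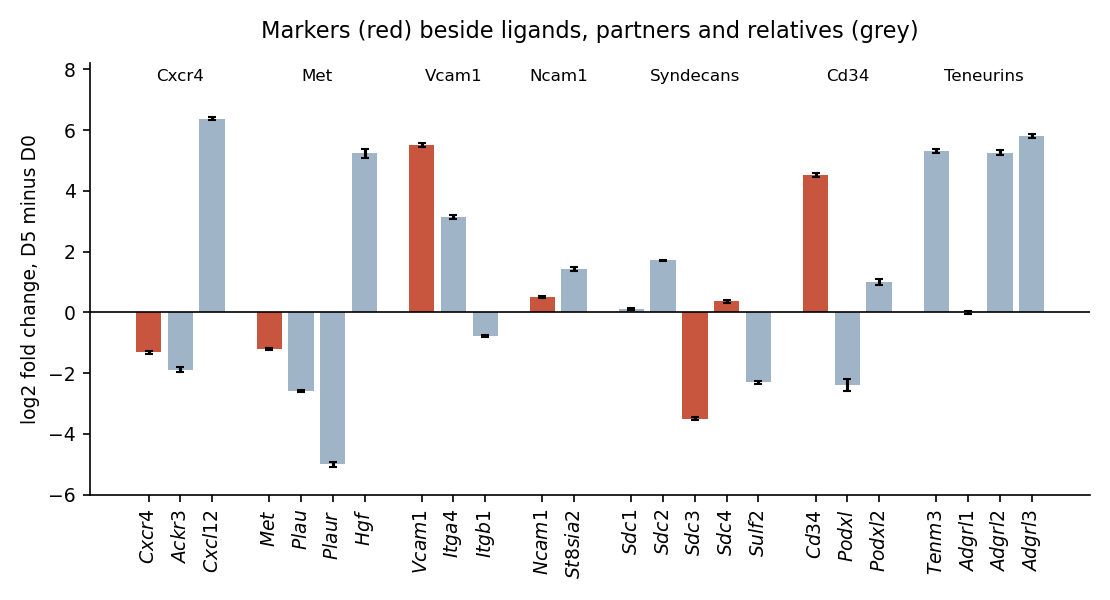
Log2 fold change, D5 minus D0, from edgeR with TMM scaling and standard errors as bars, for markers (red) and for their ligands, modifiers and relatives (grey), in 7 blocks. *Cxcr4* and *Met* point down while their ligands *Cxcl12* and *Hgf* point up by 6.38 and 5.24, and *Sdc3* and *Sdc4* point in opposite directions, although *Sdc4* was at -0.23 when scaled to the spike-ins.

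To compare levels between genes, counts were divided by exonic length, with all annotated exons of a gene merged. The transcripts made may be shorter, so places close in the order could change with another length. In myoblasts the order was *Ncam1* (58.3 ± 0.482 CPM per kb), *Sdc4* (54.4 ± 0.284), *Sdc3* (46.1 ± 1.08), *Cxcr4* (45.6 ± 0.969), *Met* (15.9 ± 0.206), *Vcam1* (0.379 ± 0.0207), *Cd34* (0.296 ± 0.0147) and *Tenm4* (0.00390 ± 0.00251, SD, n = 3 for each), and only the neighbours *Sdc3* and *Cxcr4* overlapped. In the D5 libraries *Ncam1* (83.1 ± 1.38 CPM per kb) and *Sdc4* (69.8 ± 3.68) still led. They were followed by *Cxcr4* (18.2 ± 1.30) and *Vcam1* (17.4 ± 1.41), which overlapped, by *Met* (6.88 ± 0.386) and *Cd34* (6.83 ± 0.412), which overlapped too, and by *Sdc3* (4.08 ± 0.285) and *Tenm4* (0.0267 ± 0.0123, SD, n = 3 for each). *Sdc3* moved from the third to the seventh place. The ratio of *Vcam1* to *Ncam1*, the 2 adhesion molecules of the immunoglobulin family, was 0.00615, 0.00676 and 0.00658 at D0 and 0.229, 0.197 and 0.203 at D5 in counts per kb. Reads could be shared with other genes at few places, since the share of 50-base stretches of a marker's transcripts that occur elsewhere in the transcriptome was highest for *Sdc3*, at 5.36%, and 0% for *Sdc4*, *Met*, *Cxcr4* and *Calcr*.

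**Figure D4:**
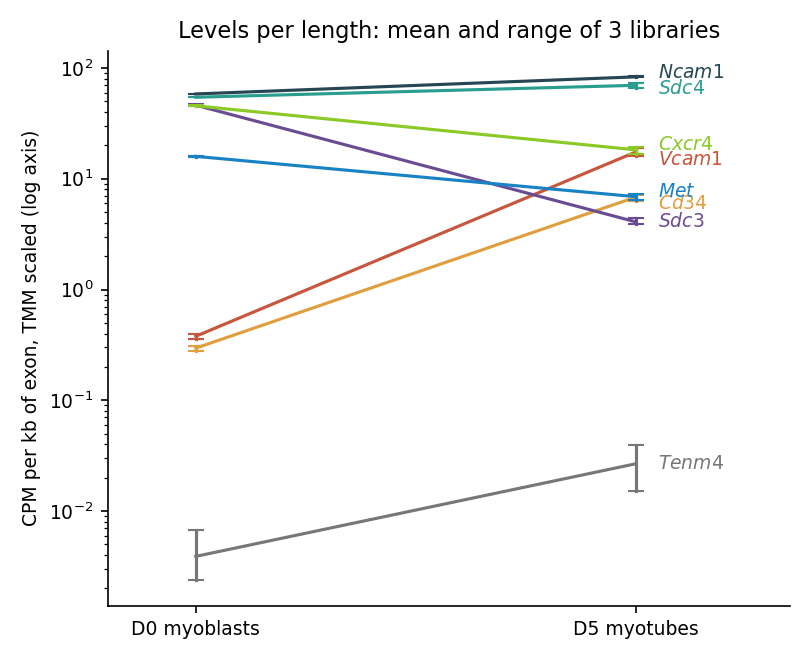
Level per kb of exon, in CPM after TMM scaling on a log axis, for 8 markers at D0 and D5 (lines join the means of 3 libraries; bars give their range). *Vcam1* and *Cd34* climb from below 0.4 to 17.4 and 6.83 CPM per kb, and *Sdc3* drops from 46.1 to 4.08.

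Apart from *Tenm4* and *Calcr*, which were at or near the limit of detection, the markers were thus still present at D5. Beside the 43.2% of *Met* and the 40.02% of *Cxcr4*, *Sdc3* kept 8.84% of its D0 level. The satellite cell regulator *Pax7* kept 30.5% (log2 fold change -1.71), and proliferation genes had a median log2 fold change of -4.97. Of 16 other surface markers of satellite cells, 5 were lower and 11 higher at D5, beside 40.8% and 42.2% of all genes tested. With the spike-ins 2 were lower and 5 higher, beside 3747 and 1813 of the 16290 genes tested. The median log2 fold change of the 16 was 0.37 with TMM, beside 0.0022 for all genes. *Fgfr4* and *Egfr*, growth factor receptors, had log2 fold changes of 4.82 and 4.65, *Cav1*, the caveolae protein, 3.27, and *Megf10*, a receptor of myoblasts and satellite cells, 2.54, each called in edgeR's test. *Itga7*, by which myogenic cells are sorted, rose from 695 ± 14.6 to 1470 ± 25.0 CPM, and *Cdh15*, M-cadherin, fell from 363 ± 1.24 to 237 ± 5.02 CPM (SD, n = 3 each). Scaled to the spike-ins *Itga7* was at 0.52 (SE 0.51, edgeR adjusted p = 0.45) in place of 1.08, whereas *Cdh15* was further from 0, at -1.19 in place of -0.62, with a wider error (SE 0.52, edgeR adjusted p = 0.061). Of 16 quiescence genes, 7 were lower, 6 higher, 1 not called and 2 not tested, beside the same 40.8% and 42.2% of all genes, with a median of -0.21. *Hey1*, a Notch target, and *Myf5* fell (log2 fold changes -2.68 and -2.32), while *Spry1*, an inhibitor of growth factor signalling, and *Cdkn1c*, a cell-cycle inhibitor, rose (3.83 and 4.53). Opposite-strand genes share 24.4% and 30.7% of the exonic length of the latter pair, whose counts are uncertain for that reason. For the 9 markers the share is at most 7.73%. It is 19.1% for *Podxl2*, 15.6% for *Adgrl1* and 10.1% for *Rgs16*, to which the same limit applies.

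The ligand and partner lists held changes of both signs as well, beside 40.8% of all genes called lower and 42.2% higher. With the spike-ins 3747 of the 16290 genes tested were lower and 1813 higher. Of 21 ligands and binding partners 6 were lower, 7 higher, 2 not called and 6 not tested. Of 27 coreceptors and modifying enzymes 11 were lower, 7 higher, 1 not called and 8 not tested, with a median log2 fold change of -0.48, and 8 lower and 2 higher with the spike-ins. Of 26 relatives of the markers 3 were lower, 13 higher and 10 not tested, with a median of 1.51, and 3 lower and 6 higher with the spike-ins. Among the relatives *Mcam*, the adhesion molecule CD146, fell by 5.84 on the log2 scale, from 173 ± 2.78 to 3.03 ± 0.435 CPM, and *Bcam*, a laminin-binding protein, rose from 0.387 ± 0.0881 to 22.6 ± 0.303 CPM (SD, n = 3 each). *Nrcam*, a cell adhesion molecule of the L1 family, rose from 0.133 ± 0.0740 to 2.95 ± 0.132 CPM (SD, n = 3 each).

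By pattern over the 6 libraries, the genes closest to *Sdc3* were *Pkmyt1*, *Hist1h3e* and *Kif18a*, with root mean squared differences of 0.0397, 0.0543 and 0.0545 in centred log2 CPM. With 2 groups of close replicates this measure mainly matches the size of the change. Their log2 fold changes were -3.53, -3.52 and -3.46, beside -3.50 for *Sdc3*, and shared regulation was not tested. Those closest to *Vcam1* were *4930544I03Rik*, *Slit2* and *Il12a*, at 0.0965, 0.1003 and 0.102. *Slit2* went from 4.41 ± 0.288 to 182 ± 5.79 CPM (SD, n = 3 each), and the other 2 had 0 counts in every D0 library. For those 2 the D0 value is set by the prior count of 2, so that their nearness to *Vcam1* depends on it and no fold is given.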

How the data were processed

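RNA-seq counts of 3 D0 and 3 D5 libraries of C2C12 cells were used. The authors deposited raw counts of reads per gene from featureCounts on GRCm38, per library and without normalization. The labels name Tophat2 as the aligner and the methods of the study name HISAT2, and the counts do not show which was used. Strand setting, annotation release and the handling of reads with several matches are not given in the sources used here, so overlapping genes may share reads. Each file also held 92 ERCC rows and 1 unnamed row equal to the column total, left out of library sizes and tests.

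The counts were filtered with filterByExpr, scaled by TMM and tested with the quasi-likelihood F test of edgeR 4.0.16 (R 4.3.3), which also gave CPM and log2 fold changes, with Benjamini-Hochberg adjustment over 16290 genes. The SE of a log2 fold change is its size over the root of the F statistic. Exonic lengths and positions came from GENCODE M21 (GRCm38), which holds 99.9% of the gene identifiers. Libraries of a group differed beyond counting noise (chi-square over degrees of freedom 2.16 to 3.45), and all 6 were kept as separate samples. This difference cannot show whether they came from separate cultures, as library preparation may add to it. Up to 3 counts in a library were read as no detection.

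The 9 markers, the lists and the tests were chosen with earlier results of these data known. Named from the lists are direct ligands and receptors of the markers and up to 4 genes per list with the largest absolute log2 fold change among called genes with a mean of at least 10 counts. *Sdc1*, *Sdc2*, *Podxl*, *Podxl2*, *Calcrl*, *Col5a1*, *Col5a2*, *Col5a3*, *Mif*, *Pax7*, *Itga7*, *Cdh15* and *Cd82* were named outside that rule, after their values were seen. So were the calcitonin peptides, *Tenm1*, *Tenm2*, *Mymx* and the cell type markers. For the marker with the largest rise and the one with the largest fall, the 3 genes nearest in centred log2 CPM (prior count 2) were also named. Alternatives were DESeq2 1.42.0, upper-quartile factors, total counts, ERCC scaling, no filter, a minimum of 10 counts per library, a replicate block and 6 fits without 1 library each. The code was tested on simulated data with known changes.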

Additional observations from a re-analysis of the deposited data

Results flagged for a closer look

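The ERCC spike-ins, which no comparison of the markers used as its main scale, took 1.20% of the counts in D5 replicate 1 and 2.09% in D5 replicate 3, above the highest D0 library at 0.859%. Scaled to them, *Ncam1* had 572, 948 and 334 CPM in D5 replicates 1, 2 and 3 and 592, 621 and 720 CPM at D0, so the groups overlapped. *Sdc4* then had 144, 223 and 84.4 CPM at D5 and 163, 170 and 197 CPM at D0. Outlying libraries within a group were not sought, as each group has 3.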

How the results depend on the processing

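Calls of *Vcam1*, *Cd34*, *Sdc3*, *Met* and *Cxcr4* kept their direction and their side of the threshold in all 13 alternatives, and those of *Ncam1* and *Sdc4* in 12. ERCC scaling left 3747 genes lower and 1813 higher, 2 of the 9 markers higher, 2 markers without overlap and higher, 14 of the 91 ligands, partners and relatives higher (30 with TMM), and 7 lower and 8 higher of the 32 satellite cell genes (12 and 17 with TMM). With it *Ncam1* was at -0.060, *Sdc4* at -0.23, *Adgrl1* at -0.59 and *Sdc1* at -0.44. *Adgrl1*, at 0.00 with TMM, was at -0.016 with upper-quartile factors, -0.085 with total counts (edgeR adjusted p = 0.048), -0.053 without a filter, -0.00024 with the replicate block, and from -0.041 to 0.029 over the fits that left out 1 library. The cause was not tested. Those fits gave 3 markers lower and 5 higher, the fifth being *Tenm4*, which then passed the filter through its D5 counts alone.

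Same-numbered libraries of D0 and D5 deviated together only weakly, with correlations of 0.033, 0.065 and 0.028 across genes, so the numbers were not taken to pair the libraries, although each library correlated best with its own number. With the replicate block 6664 genes were lower and 6894 higher, and 3 and 4 markers. Depth limits *Calcr*, which had 0 counts in every library and cannot be followed. It also limits *Tenm4*, whose rise has a wide counting interval (3.33 to 15.1) and whose groups overlapped with the spike-ins.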

Other observations

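Of 17 intracellular partners of the receptors and adhesion molecules 12 were lower, 3 higher and 2 not called, beside 40.8% of all genes called lower and 42.2% higher, with a median log2 fold change of -0.46 beside 0.0022 for all genes. *Msn*, moesin, which links CD44-type and sialomucin tails to actin, fell from 1680 ± 11.7 to 490 ± 9.03 CPM (SD, n = 3 each), a difference of -1.78 on the log2 scale (edgeR, adjusted p = 4.3e-29). *Rgs16*, which shortens G protein signals from chemokine receptors, had a log2 fold change of -1.23, and *Sdcbp2*, a relative of the syndecan-binding protein syntenin, one of -1.77 from at most 30 counts per library. With scaling to the spike-ins 6 of the 17 were lower and 0 higher, beside 3747 and 1813 of the 16290 genes tested.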
